A study of Mus musculus with 6 samples.

Results

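Heat shock proteins and DnaJ co-chaperones were followed through left lungs injured by warm ischemia and reperfusion. Members were taken by name from the protein-coding rows of the deposited count table, as every symbol that begins with Hspa, Hspb, Hspd, Hspe, Hsph, Hsp90, Dnaja, Dnajb or Dnajc. This gave 72 of the 23194 genes in the table, of which 17666 are protein coding. They comprise 13 Hspa genes, 8 Hspb genes, Hspd1 and Hspe1, Hsph1, 3 Hsp90 genes, 4 Dnaja genes, 12 Dnajb genes and 27 Dnajc genes. The name pattern also caught 2 genes that encode proteins binding heat shock proteins, Hspbp1 and Hspbap1.

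The mice were adult, wild type and of the inbred strain C57BL/6. RNA of the whole left lung was sequenced in 6 libraries, taken here as 6 separate mice. In the 3 injured lungs the left pulmonary artery was closed for 4 h and blood was let back in for 24 h. The 3 naive lungs carry the treatment label Control, and no sham operation is described for them, so anaesthesia, surgery, ischemia and reperfusion cannot be told apart. The labels used here give neither the sex of the animals nor the time of day of collection.

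Heat shock proteins are molecular chaperones, which hold, fold or hand on other proteins. HSP70 proteins (most but not all Hspa genes) bind and release unfolded stretches in a cycle driven by ATP. J-domain proteins (Dnaj genes) bring HSP70 proteins substrates and start the cycle, and HSP110 (Hsph1) exchanges the nucleotide. HSP90 proteins finish the folding of kinases and steroid receptors, and HSP60 and HSP10 (Hspd1 and Hspe1) form a folding chamber in mitochondria. Small heat shock proteins (most but not all Hspb genes) hold unfolded proteins without ATP. Heat and other stress that unfolds protein in the cytosol raises the inducible members through heat shock factor 1 (HSF1), which binds repeated GAA and TTC units. Stress of the endoplasmic reticulum raises the chaperones of that compartment through other factors, which bind the endoplasmic reticulum stress element.

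No member passed the test between injured and naive lungs. Of the 72 members, 66 had enough reads to be tested, and 0 were called higher and 0 lower at an adjusted p under 0.05 by edgeR's quasi-likelihood test with Benjamini-Hochberg adjustment over all 15486 genes tested. Over all genes 3.11% were called, 334 higher and 148 lower. At an unadjusted p under 0.05 there was 1 member higher and 2 lower by edgeR, and the same counts by DESeq2 and by limma-voom, which also called 0 members. These 3 were 4.55% of the members tested, against 16.7% of all genes. DESeq2 gave Hspa1b no adjusted p, so that gene could not be called there. The authors' deposited table likewise gives 0 members an adjusted p under 0.05, among the 65 for which it has one, and 967 of 15721 genes.

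Levels of RNA set against each other between genes are given in FPKM, counts scaled by gene length and by the library total, as deposited by the authors. By the mean of the 6 libraries the most abundant members were Hsp90ab1 at 443 FPKM, Hspa8 at 361 FPKM, Hspa5 at 253 FPKM, Hsp90aa1 at 145 FPKM, Hspb1 at 137 FPKM and Hsp90b1 at 131 FPKM. These 6 held 57.9% of the members' summed FPKM, while 8 tested or untested members averaged under 1 FPKM. The whole family took 0.531%, 0.531% and 0.603% of all FPKM in injured replicates 1, 2 and 3, against 0.470%, 0.545% and 0.863% in naive replicates 1, 2 and 3. Naive replicate 3 gave the highest share and naive replicate 1 the lowest, with the injured lungs between them.

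Naive replicate 3 stood apart from the other naive lungs in this gene family. In 6 of the 66 tested members its level lay at least 1 log2 unit above the mean of naive replicates 1 and 2, as it did in 1.67% of all genes tested. The 6 were Hspa1b, Hspa1a, Hsph1, Dnaja1, Hspa8 and Hspa5. The same count, each library against the other 2 of its group, was 0, 0 and 1 for injured replicates 1, 2 and 3 and 0 for naive replicates 1 and 2. Over all genes the share so far above was 1.03%, 1.07% and 2.81% for injured replicates 1, 2 and 3, against 1.37%, 1.00% and 1.67% for naive replicates 1, 2 and 3, so that of injured replicate 3 was the highest. At least 1 log2 unit below the other 2 libraries of the group, whose mean includes naive replicate 3, lay 4 members in naive replicate 1 and 2 in naive replicate 2, and 0 in the other 4 libraries. Of all 15486 genes, 208, 342 and 267 lay so far below in injured replicates 1, 2 and 3. In naive replicates 1, 2 and 3 these counts were 210, 213 and 268. Naive replicate 1 was the lowest of the 6 libraries for 26 members, a count for which no share over all genes is given here. Naive replicate 3 was the highest of the 6 libraries for 24 members (36.4%), against 21.4% of all genes tested. Ranked by this difference among 15486 genes, Hspa1b was number 4, Hspa1a number 12, Hsph1 number 15, Dnaja1 number 75 and Hspa8 number 85. Values are given for every library, and the comparison is given with and without naive replicate 3.

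**Figure D1:**
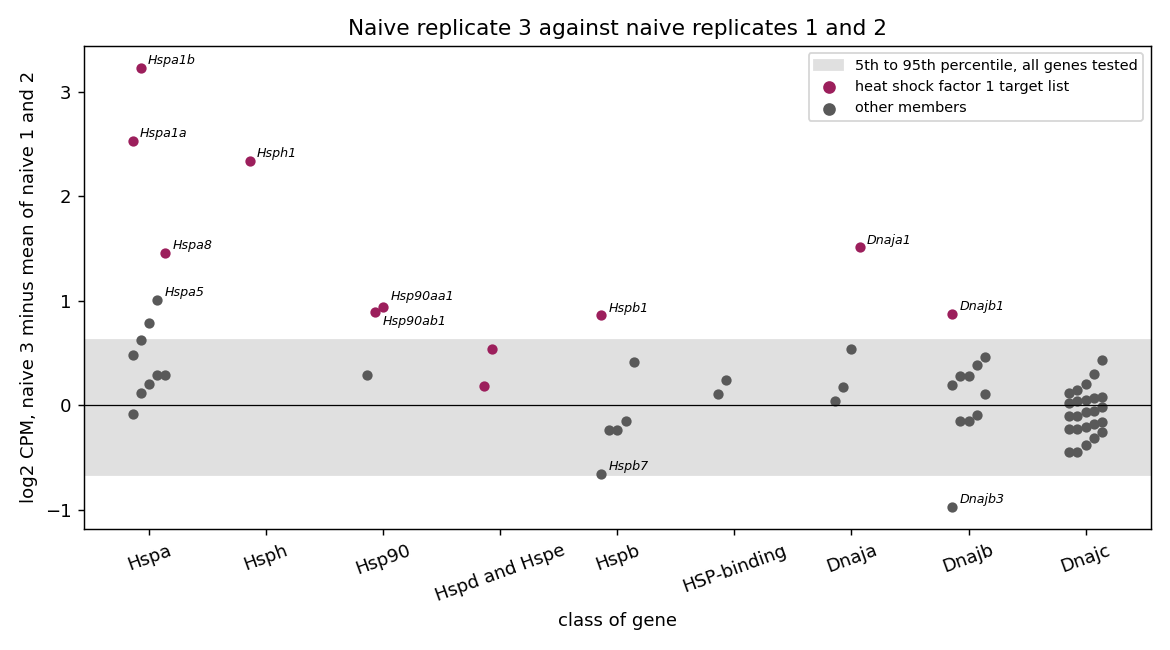
Difference in log2 CPM between naive replicate 3 and the mean of naive replicates 1 and 2 for the 66 tested members, by class of gene, with the 5th to 95th percentile of all genes tested in grey. Hspa1b, Hspa1a and Hsph1 lie more than 2 log2 units above the line at 0, and all 25 Dnajc genes lie inside the grey band.

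The promoters of 5 of these 6 members are printed here because the elements that HSF1 and the endoplasmic reticulum stress factors bind can be read in them. They are RefSeq sequences of build GRCm38.p6, from 250 bases before to 50 bases after the start of transcription, read 5′ to 3′ on the gene's strand. Capitals mark GAANNTTC or TTCNNGAA, a heat shock element of 2 units, and in Hspa5 they mark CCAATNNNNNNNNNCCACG, the endoplasmic reticulum stress element. In the order printed the windows are chr17:34959189-34959488 (minus strand), chr17:34972107-34972406 (minus strand), chr5:149636287-149636586 (minus strand), chr4:40722218-40722517 (plus strand), chr1:55087898-55088197 (plus strand) and chr2:34771840-34772139 (plus strand). No window was used for Hspa8, the other of the 6, or for the HSF1 targets Hsp90aa1 and Hsp90ab1. Hspe1 is shown as the HSF1 target on which naive replicate 3 differed least.
Hspa1b: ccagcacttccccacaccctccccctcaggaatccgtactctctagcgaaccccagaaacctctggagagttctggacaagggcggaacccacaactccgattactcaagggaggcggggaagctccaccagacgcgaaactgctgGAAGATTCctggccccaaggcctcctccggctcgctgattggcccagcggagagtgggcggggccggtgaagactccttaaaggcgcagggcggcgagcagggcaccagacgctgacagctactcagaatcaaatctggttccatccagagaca
Hspa1a: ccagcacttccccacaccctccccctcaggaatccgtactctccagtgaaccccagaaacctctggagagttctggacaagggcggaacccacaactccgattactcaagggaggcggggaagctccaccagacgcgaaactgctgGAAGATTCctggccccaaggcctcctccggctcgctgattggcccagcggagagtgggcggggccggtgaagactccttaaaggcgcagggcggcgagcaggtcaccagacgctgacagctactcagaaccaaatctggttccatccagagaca
Hsph1: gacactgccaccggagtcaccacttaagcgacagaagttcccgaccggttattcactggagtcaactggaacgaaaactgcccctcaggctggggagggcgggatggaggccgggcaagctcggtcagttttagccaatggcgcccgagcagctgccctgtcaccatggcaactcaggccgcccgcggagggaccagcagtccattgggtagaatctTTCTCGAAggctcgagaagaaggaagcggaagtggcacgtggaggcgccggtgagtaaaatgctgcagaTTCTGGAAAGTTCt
Dnaja1: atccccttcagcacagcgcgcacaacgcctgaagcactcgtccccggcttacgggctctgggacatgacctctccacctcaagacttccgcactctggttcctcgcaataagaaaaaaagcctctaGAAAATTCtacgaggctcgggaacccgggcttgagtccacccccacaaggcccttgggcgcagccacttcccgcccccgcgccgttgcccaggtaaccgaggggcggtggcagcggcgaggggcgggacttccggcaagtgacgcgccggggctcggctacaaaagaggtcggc
Hspe1: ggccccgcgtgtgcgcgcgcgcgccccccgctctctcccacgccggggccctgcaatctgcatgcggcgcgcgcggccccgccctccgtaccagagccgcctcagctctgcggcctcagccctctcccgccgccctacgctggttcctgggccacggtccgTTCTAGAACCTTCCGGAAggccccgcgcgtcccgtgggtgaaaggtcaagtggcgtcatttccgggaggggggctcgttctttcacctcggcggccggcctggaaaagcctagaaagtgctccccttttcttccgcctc
Hspa5: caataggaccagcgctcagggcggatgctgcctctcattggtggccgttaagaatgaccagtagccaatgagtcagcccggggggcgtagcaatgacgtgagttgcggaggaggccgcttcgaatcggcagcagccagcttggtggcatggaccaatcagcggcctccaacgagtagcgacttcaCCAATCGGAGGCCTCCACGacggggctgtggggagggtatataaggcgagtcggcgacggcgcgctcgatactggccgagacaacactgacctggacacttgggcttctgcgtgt

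The windows of Hspa1a and Hspa1b differ at 4 of 300 positions and carry the same GAANNTTC match, whose first base lies 104 bases before the start of each gene. That of Dnaja1 lies 124 bases before the start. Hsph1 has a match that begins 33 bases before its start and overlapping ones that begin 36 and 41 bases after it. Hspe1 has a run of TTC, GAA, TTC and GAA units that begins 89 bases before its start. The element in Hspa5 begins 65 bases before the start. Matches were searched on both strands.

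A GAANNTTC match occurred in 7.86% and a TTCNNGAA match in 8.52% of 32851 RefSeq promoter windows of this length, and the elements overlap one another where units alternate. The 3-unit form GAANNTTCNNGAA occurred in 0.603% and the endoplasmic reticulum stress element in 0.119%. Windows of 58 of the 72 members were used here. For a gene with several windows only that nearest the deposited gene start was used, while the 32851 include every window. Some starts lay far from the deposited gene start, by 44081 bases in Dnaja3, 11328 in Dnajc6, 8131 in Dnajc25 and 1118 in Hspa4l. A missing match therefore describes only the window used. GAANNTTC was present in 10 of the 58, TTCNNGAA in 4, and the 3-unit form in Dnajb6, Hspe1 and Hsph1. The endoplasmic reticulum stress element was present in Hspa5, Hsp90b1 and Dnajc3. Among the 8 windows of genes on the list of HSF1 targets, 6 held GAANNTTC and 2 held TTCNNGAA, while among the other 50 these numbers were 4 and 2. The list was made of HSF1 targets, so this contrast is not independent of the grouping. A match describes the letters of a window and is not a measured binding site.

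**Figure D2:**
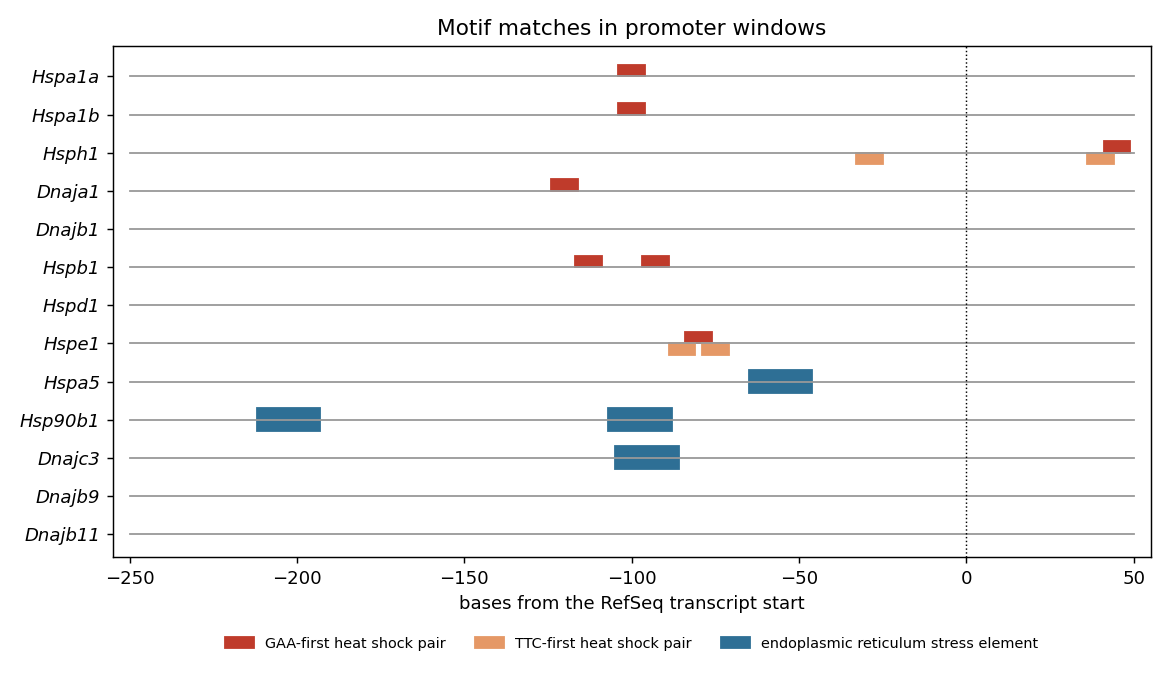
Positions of the 2-unit heat shock elements and the endoplasmic reticulum stress element in the promoter windows of members, as distance in bases from the RefSeq start of transcription. Hspa1a and Hspa1b have a match 104 bases before the start, and the element of Hspa5 lies 65 bases before it.

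Hspa1a and Hspa1b encode the strongly inducible cytosolic HSP70 and are the classical readout of HSF1 activity. In the table's mm10 coordinates they lie near each other on chromosome 17, Hspa1b (ENSMUSG00000090877) from 34956436 to 34959238 and Hspa1a (ENSMUSG00000091971) from 34969190 to 34972156. Values by library are in CPM, counts scaled to a common library size by TMM. Hspa1b had 12.1, 11.2 and 12.1 CPM in injured replicates 1, 2 and 3, against 7.50, 9.47 and 79.5 CPM in naive replicates 1, 2 and 3. The 3 injured lungs lay within a narrow range that was above naive replicates 1 and 2 and far below naive replicate 3, where the level was 9.37-fold that of the other naive lungs. Its log2 fold change of injured over naive was -1.46 ± 1.09 (SE, 3 lungs a group; edgeR adjusted p = 0.605), and without naive replicate 3 it was 0.47 ± 0.16 (edgeR adjusted p = 0.167).

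Hspa1a showed the same arrangement of injured and naive lungs, with 4.32, 5.45 and 5.57 CPM in injured replicates 1, 2 and 3, against 2.89, 3.33 and 18.3 CPM in naive replicates 1, 2 and 3. Its log2 fold change was -0.69 ± 0.80 (edgeR adjusted p = 0.745) with all libraries and 0.72 ± 0.24 (edgeR adjusted p = 0.159) without naive replicate 3. The coding sequences of the pair are nearly identical, so the split of reads between them is uncertain. Their sum was 16.4, 16.6 and 17.7 CPM in injured replicates 1, 2 and 3, against 10.4, 12.8 and 97.8 CPM in naive replicates 1, 2 and 3. For the sum the log2 fold change was -1.27 ± 1.03 (edgeR adjusted p = 0.640), and without naive replicate 3 it was 0.54 ± 0.14 (edgeR adjusted p = 0.0808). The direction of the inducible HSP70 genes thus turned on naive replicate 3, and neither direction passed the test. The authors' deposited table gives log2 fold changes of -0.145 for Hspa1a and -0.218 for Hspa1b and no p-value for either.

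Hsph1, the HSP110 nucleotide exchange factor of HSP70, lies on chromosome 5 (ENSMUSG00000029657, 149614287 to 149636376). It had 53.8, 50.5 and 71.8 CPM in injured replicates 1, 2 and 3, against 30.9, 54.4 and 207 CPM in naive replicates 1, 2 and 3. Naive replicate 3 was 4.86-fold the other naive lungs and lay above every injured lung, and naive replicate 1 lay below every injured lung. The log2 fold change was -0.73 ± 0.80 (edgeR adjusted p = 0.735), and 0.46 ± 0.30 (edgeR adjusted p = 0.511) without naive replicate 3.

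Hspa8 encodes the constitutive cytosolic HSP70 that every cell uses, on chromosome 9 (ENSMUSG00000015656, 40800984 to 40805200). It had 970.2, 959 and 1221 CPM in injured replicates 1, 2 and 3, against 605, 995 and 2128 CPM in naive replicates 1, 2 and 3. The groups overlapped, with the injured lungs near or above naive replicate 2 and naive replicate 3 highest at 2.66-fold the other naive lungs. Its log2 fold change was -0.24 ± 0.48 (edgeR adjusted p = 0.867), and 0.39 ± 0.23 (edgeR adjusted p = 0.453) without naive replicate 3.

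Dnaja1, a farnesylated J-domain protein that works with Hspa8 in the cytosol, had 122, 121 and 159 CPM in injured replicates 1, 2 and 3, against 108.4, 129 and 337 CPM in naive replicates 1, 2 and 3. It lies on chromosome 4 (ENSMUSG00000028410, 40722150 to 40737149) and overlaps Smu1 on the other strand by 608 bases. Naive replicate 3 was 2.84-fold the other naive lungs, while the other 5 libraries lay between 108.4 and 159 CPM. The log2 fold change was -0.51 ± 0.50 (edgeR adjusted p = 0.689), and 0.17 ± 0.14 without naive replicate 3.

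Dnajb1, the J-domain partner of inducible HSP70, had 42.7, 42.4 and 49.99 CPM in injured replicates 1, 2 and 3, against 38.9, 40.8 and 73.2 CPM in naive replicates 1, 2 and 3. The highest library was naive replicate 3, at 1.84-fold the other naive lungs. The log2 fold change was -0.18 ± 0.25 (edgeR adjusted p = 0.791), and 0.17 ± 0.11 without naive replicate 3.

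Both cytosolic HSP90 genes were highest in naive replicate 3. Hsp90aa1, the inducible form, had 405, 432 and 461 CPM in injured replicates 1, 2 and 3, against 394, 401 and 763 CPM in naive replicates 1, 2 and 3. Hsp90ab1, the constitutive form and the most abundant member, had 911, 950.02 and 1069.7 CPM in injured replicates 1, 2 and 3, against 903, 1069.5 and 1819 CPM in naive replicates 1, 2 and 3. In both, naive replicate 3 was nearly double the other naive lungs, at 1.92-fold and 1.84-fold. The log2 fold changes were -0.26 ± 0.26 (edgeR adjusted p = 0.689) for Hsp90aa1 and -0.37 ± 0.25 (edgeR adjusted p = 0.532) for Hsp90ab1. Without naive replicate 3 they were 0.12 ± 0.10 and -0.020 ± 0.12, so that of Hsp90ab1 kept its sign and that of Hsp90aa1 did not.

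**Figure D3:**
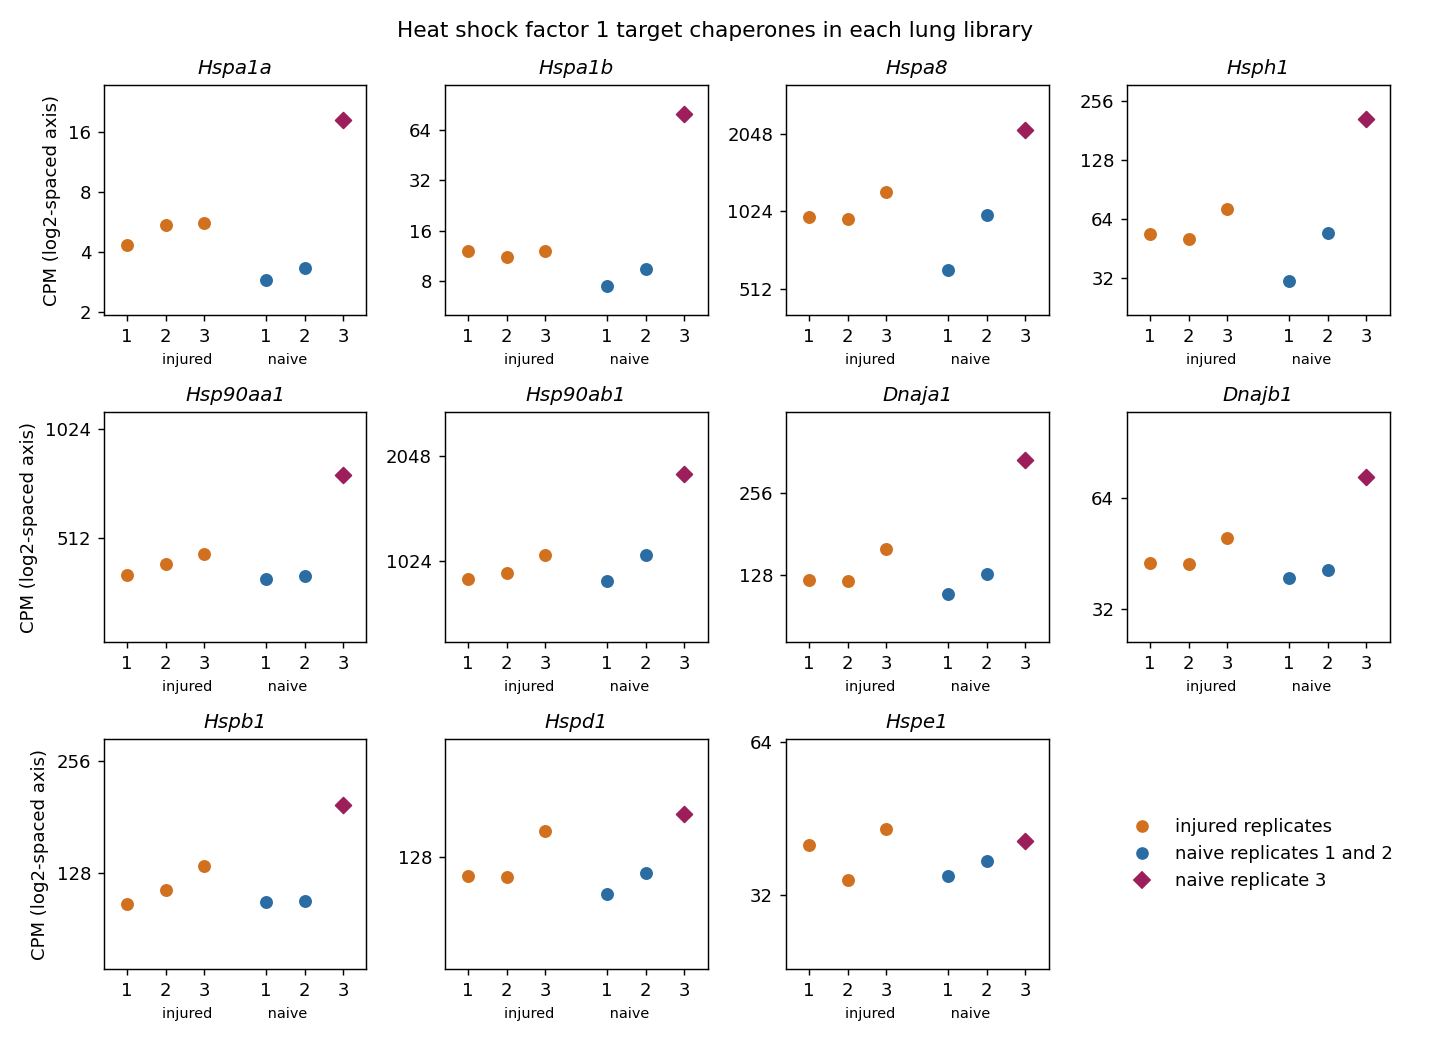
CPM on a log axis of the HSF1 target chaperones in each of the 6 lungs, injured lungs left of naive lungs. Naive replicate 3 is the highest point for 10 of the 11 genes and Hspe1 is the exception, its highest point being injured replicate 3.

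Of the 11 members on the list of HSF1 target chaperones, 0 were called higher and 0 lower. Their median log2 fold change was -0.26, beside -0.00096 over all genes tested, with 1 of 11 above 0. Without naive replicate 3, 10 of 11 were above 0, with a median of 0.17 beside -0.0021 over all genes, and 0 were called, beside 2.8% of all 15719 genes tested in that fit. Summed over the list the level was 2783, 2837 and 3375 CPM in injured replicates 1, 2 and 3, against 2338, 2966 and 5823 CPM in naive replicates 1, 2 and 3. Naive replicate 3 was above both other naive lungs in 11 of 11 genes and 2.20-fold their mean in the sum. Leaving naive replicate 3 out therefore lowers the naive mean of each gene, so the turn in sign is not a separate result. The list was chosen with earlier results of these data known, and no share over all genes is given here for the 11 of 11. In naive replicate 3 most of the sum came from Hspa8 (2128 CPM), Hsp90ab1 (1819 CPM) and Hsp90aa1 (763 CPM). Naive replicate 1 had the lowest sum, and the 3 injured lungs lay around naive replicate 2.

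**Figure D4:**
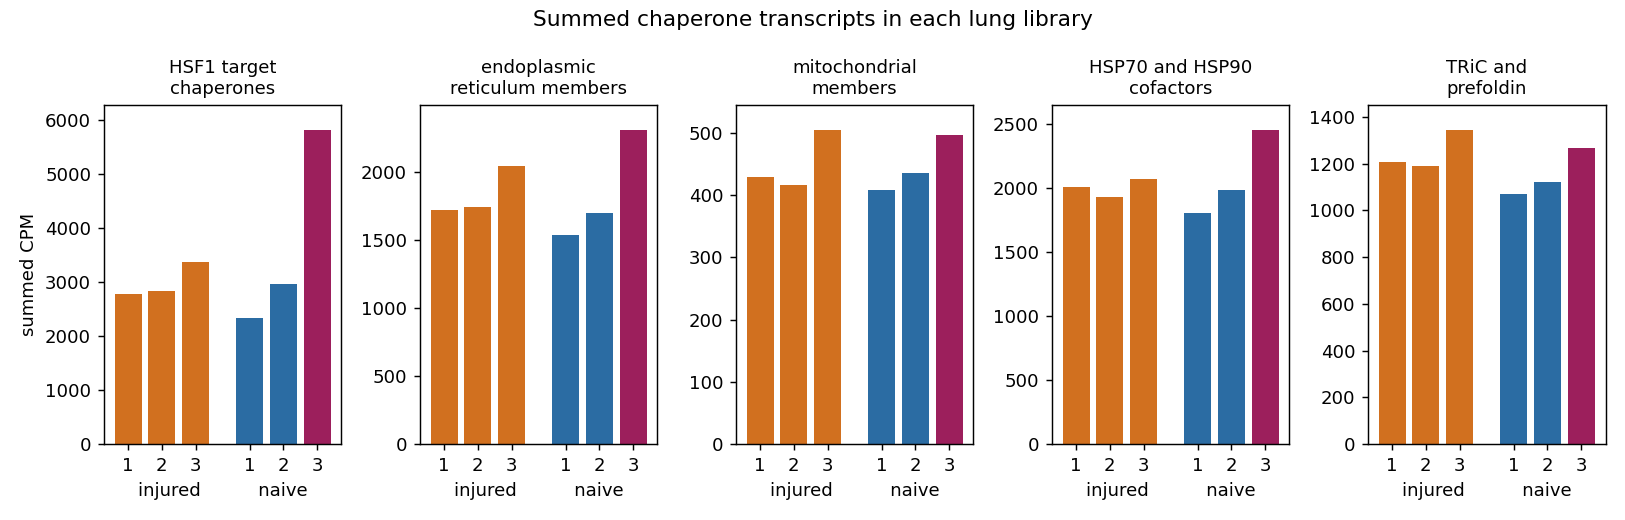
Summed CPM by library of 3 groups of members, the HSP70 and HSP90 cofactors, and TRiC with prefoldin, injured lungs left of naive lungs. The sum of the HSF1 targets reaches 5823 CPM in naive replicate 3, against 2338 to 3375 CPM in the other 5 lungs, and the sum of the mitochondrial members stays between 408 and 505 CPM.

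Hspd1 and Hspe1, the mitochondrial HSP60 and HSP10, are transcribed away from each other from a shared promoter region and overlap by 112 bases in the table. Hspd1 had 116, 115 and 147 CPM in injured replicates 1, 2 and 3, against 105, 118 and 161 CPM in naive replicates 1, 2 and 3, with a log2 fold change of -0.022 ± 0.17. Hspe1 had 40.1, 34.2 and 43.2 CPM in injured replicates 1, 2 and 3, against 34.8, 37.3 and 40.9 CPM in naive replicates 1, 2 and 3, with a log2 fold change of 0.056 ± 0.11. For both the groups overlapped, and the distance of naive replicate 3 from the other naive lungs was smaller than for the cytosolic targets, at 1.45-fold and 1.13-fold. Hspa9, the mitochondrial HSP70 also called mortalin, had 164, 164 and 192 CPM in injured replicates 1, 2 and 3, against 169, 166 and 182 CPM in naive replicates 1, 2 and 3 and a log2 fold change of 0.0053 ± 0.093. Over the 7 mitochondrial members, which also include the J-domain genes Dnaja3, Dnajc11, Dnajc15 and Dnajc19, 0 were called and the median log2 fold change was 0.045.

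Hspa5 encodes BiP, the HSP70 of the endoplasmic reticulum, on chromosome 2 (ENSMUSG00000026864, 34771970 to 34776531). It had 609, 600.1 and 777 CPM in injured replicates 1, 2 and 3, against 443, 556 and 999 CPM in naive replicates 1, 2 and 3. All 3 injured lungs lay above naive replicates 1 and 2 and below naive replicate 3, which was 2.00-fold the other naive lungs. The log2 fold change was -0.0090 ± 0.31 (edgeR adjusted p = 0.994), and 0.40 ± 0.15 (edgeR adjusted p = 0.215) without naive replicate 3.

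Its J-domain partner Dnajb11 had 104, 91.5 and 119.6 CPM in injured replicates 1, 2 and 3, against 77.8, 86.7 and 113 CPM in naive replicates 1, 2 and 3, with a log2 fold change of 0.18 ± 0.15 (edgeR adjusted p = 0.611), or 0.35 ± 0.12 (edgeR adjusted p = 0.181) without naive replicate 3. Hsp90b1, which encodes the endoplasmic reticulum HSP90 GRP94, had 373, 374 and 459 CPM in injured replicates 1, 2 and 3, against 392, 433 and 504 CPM in naive replicates 1, 2 and 3. Its log2 fold change was -0.14 ± 0.12 (edgeR adjusted p = 0.642), on the other side of 0 from Dnajb11, and both pairs of groups overlapped. Dnajb9, an inducible J-domain protein that acts on BiP, had 64.3, 76.5 and 82.3 CPM in injured replicates 1, 2 and 3, against 61.2, 69.3 and 84.9 CPM in naive replicates 1, 2 and 3 and a log2 fold change of 0.050 ± 0.14. Dnajc3, which encodes the J-domain protein P58IPK, had 313, 331 and 328 CPM in injured replicates 1, 2 and 3, against 298, 300.5 and 367 CPM in naive replicates 1, 2 and 3 and a log2 fold change of 0.011 ± 0.10. Of the 8 endoplasmic reticulum members, 0 were called, and the median log2 fold change was 0.031 with all libraries and 0.15 without naive replicate 3. Their sum was 1724, 1742 and 2047 CPM in injured replicates 1, 2 and 3, against 1535, 1704 and 2312 CPM in naive replicates 1, 2 and 3.

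Among the small heat shock proteins, Hspb1, the widely expressed HSP27, had 106, 116 and 134 CPM in injured replicates 1, 2 and 3, against 107.4, 107.5 and 195 CPM in naive replicates 1, 2 and 3. Naive replicate 3 was 1.81-fold the other naive lungs and the only library outside 106 to 134 CPM. The log2 fold change was -0.21 ± 0.25 (edgeR adjusted p = 0.755). Hspb8, which works with the cofactor Bag3 in clearing damaged proteins by autophagy, had 83.3, 94.0 and 90.4 CPM in injured replicates 1, 2 and 3, against 69.7, 66.9 and 90.8 CPM in naive replicates 1, 2 and 3. All 3 injured lungs lay above naive replicates 1 and 2, and naive replicate 3 lay within the injured range. Its log2 fold change was 0.24 ± 0.12 (edgeR adjusted p = 0.381), and 0.38 ± 0.090 without naive replicate 3, where its edgeR adjusted p of 0.0616 was the smallest of any member and missed the threshold.

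Hspb7 and Hspb6 are small heat shock proteins of heart and smooth muscle, and their levels varied within both groups. Hspb7 had 10.6, 10.4 and 26.4 CPM in injured replicates 1, 2 and 3, against 19.1, 23.9 and 13.5 CPM in naive replicates 1, 2 and 3, with a log2 fold change of -0.24 ± 0.44 (edgeR adjusted p = 0.853). Without injured replicate 3 it was -0.84 ± 0.23 (edgeR adjusted p = 0.117), and without injured replicate 1 or 2 or naive replicate 2 it was -0.024, -0.011 and -0.040. Injured replicate 3 was its highest library and the only case outside naive replicate 3 in which a member lay at least 1 log2 unit above the mean of the other 2 libraries of its group. Hspb6 had 12.3, 9.84 and 19.9 CPM in injured replicates 1, 2 and 3, against 11.7, 18.3 and 12.4 CPM in naive replicates 1, 2 and 3. The summed level of 11 heart muscle markers was 351, 142 and 736 CPM in injured replicates 1, 2 and 3, against 515, 941 and 599.6 CPM in naive replicates 1, 2 and 3, and it was highest in naive replicate 2 and injured replicate 3, as were Hspb7 and Hspb6. Of these markers 10 were tested, 0 were called, and Nppa was at 0 in 2 libraries. For 7 smooth muscle markers the sum was 606, 556 and 795 CPM in injured replicates 1, 2 and 3. It was 764, 943 and 799 CPM in naive replicates 1, 2 and 3, also highest in naive replicate 2. Of these 7, 1 was called lower and 0 higher. The part of heart and smooth muscle transcripts in the values of Hspb7 and Hspb6 was not tested. In whole lung RNA fewer cells of a type and less RNA per cell cannot be told apart.

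Hspa12a, a distant HSP70 relative, had the smallest adjusted p of the members. It had 28.5, 27.7 and 23.6 CPM in injured replicates 1, 2 and 3, against 32.4, 34.5 and 31.6 CPM in naive replicates 1, 2 and 3. All 3 injured lungs lay below all 3 naive lungs, and the log2 fold change was -0.30 ± 0.11 (edgeR adjusted p = 0.182). Hspa12b, its relative in endothelial cells, had 113, 109.9 and 108.9 CPM in injured replicates 1, 2 and 3, against 100.2, 99.9 and 172 CPM in naive replicates 1, 2 and 3 and a log2 fold change of -0.17 ± 0.21, with naive replicate 3 highest. Hspa2, known for its role in spermatogenesis in testis, had 21.9, 32.2 and 23.9 CPM in injured replicates 1, 2 and 3, against 17.4, 20.3 and 23.0 CPM in naive replicates 1, 2 and 3 and a log2 fold change of 0.36 ± 0.16 (edgeR adjusted p = 0.307).

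In 4 of the 66 tested members the groups did not overlap, against 22.9% of all genes tested. Besides Hspa12a these were 3 Dnajc genes. Dnajc28, a J-domain gene that overlaps a transcript on the other strand by 4770 bases, had 10.9, 11.7 and 11.6 CPM in injured replicates 1, 2 and 3, against 8.03, 10.8 and 7.46 CPM in naive replicates 1, 2 and 3, with a log2 fold change of 0.39 ± 0.17 (edgeR adjusted p = 0.281), the largest positive one of any member. Dnajc24, which takes part in making the modified histidine diphthamide, had 6.55, 7.13 and 7.72 CPM in injured replicates 1, 2 and 3, against 8.40, 9.20 and 10.1 CPM in naive replicates 1, 2 and 3, with a log2 fold change of -0.37 ± 0.16 (edgeR adjusted p = 0.262). Dnajc6, the clathrin-uncoating protein auxilin, had 2.33, 3.501 and 2.40 CPM in injured replicates 1, 2 and 3, against 3.83, 3.81 and 3.54 CPM in naive replicates 1, 2 and 3, with a log2 fold change of -0.44 ± 0.24 (edgeR adjusted p = 0.411). These last 3 genes were weakly expressed, at no more than 11.7 CPM in any library.

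By class, the 4 Dnaja genes had log2 fold changes from -0.51 for Dnaja1 to -0.026, the 11 tested Dnajb genes from -0.22 to 0.18, and the 25 tested Dnajc genes from -0.44 for Dnajc6 to 0.39 for Dnajc28. The most abundant Dnaja gene was Dnaja2, at 46.0 FPKM with a log2 fold change of -0.044 ± 0.080, and Dnaja4, at 11.1 FPKM, had -0.069 ± 0.15. Dnajb4 and Dnajb5 had log2 fold changes of -0.22 ± 0.10 and -0.22 ± 0.17. Dnajc8, which takes part in splicing, was the most abundant Dnajc gene at 62.7 FPKM and had a log2 fold change of -0.011 ± 0.092. The HSP70 nucleotide exchange factor Hspbp1 had 0.15 ± 0.12 and Hspbap1 had -0.15 ± 0.17.

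Dnajb3 and Hspb7 were the members on which naive replicate 3 lay furthest below the other naive lungs. Dnajb3 had 0.844, 0.931 and 0.675 CPM in injured replicates 1, 2 and 3, against 0.975, 0.793 and 0.410 CPM in naive replicates 1, 2 and 3, and it lies wholly within 6 Ugt1a genes on the other strand. The strand setting of the counting was not given in the sources used here. By the deposited coordinates 20 members overlap a gene on the other strand, by as few as 3 bases in Hspb6. If the counting did not use the strand, reads inside these overlaps cannot be told apart from those of the partner gene.

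Over the 66 tested members the log2 fold changes ran from -1.46 for Hspa1b to 0.39 for Dnajc28, with 27 above 0 and 39 below. Without naive replicate 3, 40 were above 0 and 26 below. The median was -0.015 with all libraries and 0.032 without naive replicate 3, beside -0.00096 and -0.0021 over all genes. The median absolute log2 fold change was 0.12 for the members and 0.16 for all genes, and the median SE was 0.15 and 0.14. An absolute log2 fold change of at least 1 was reached by 1 member, Hspa1b, and by 588 of all genes tested. In 7 members the SE was 0.4 or more, so for these a log2 difference of that size lay within the error of 3 lungs a group. The 6 members with too few reads for a test were Hspa1l, Hspb3, Hspb9, Dnajb7, Dnajc5b and Dnajc22, with at most 16 reads in a library. Hspa1l, a testis HSP70 beside Hspa1a, had 5, 7 and 16 reads in injured replicates 1, 2 and 3, against 10, 2 and 13 in naive replicates 1, 2 and 3.

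**Figure D5:**
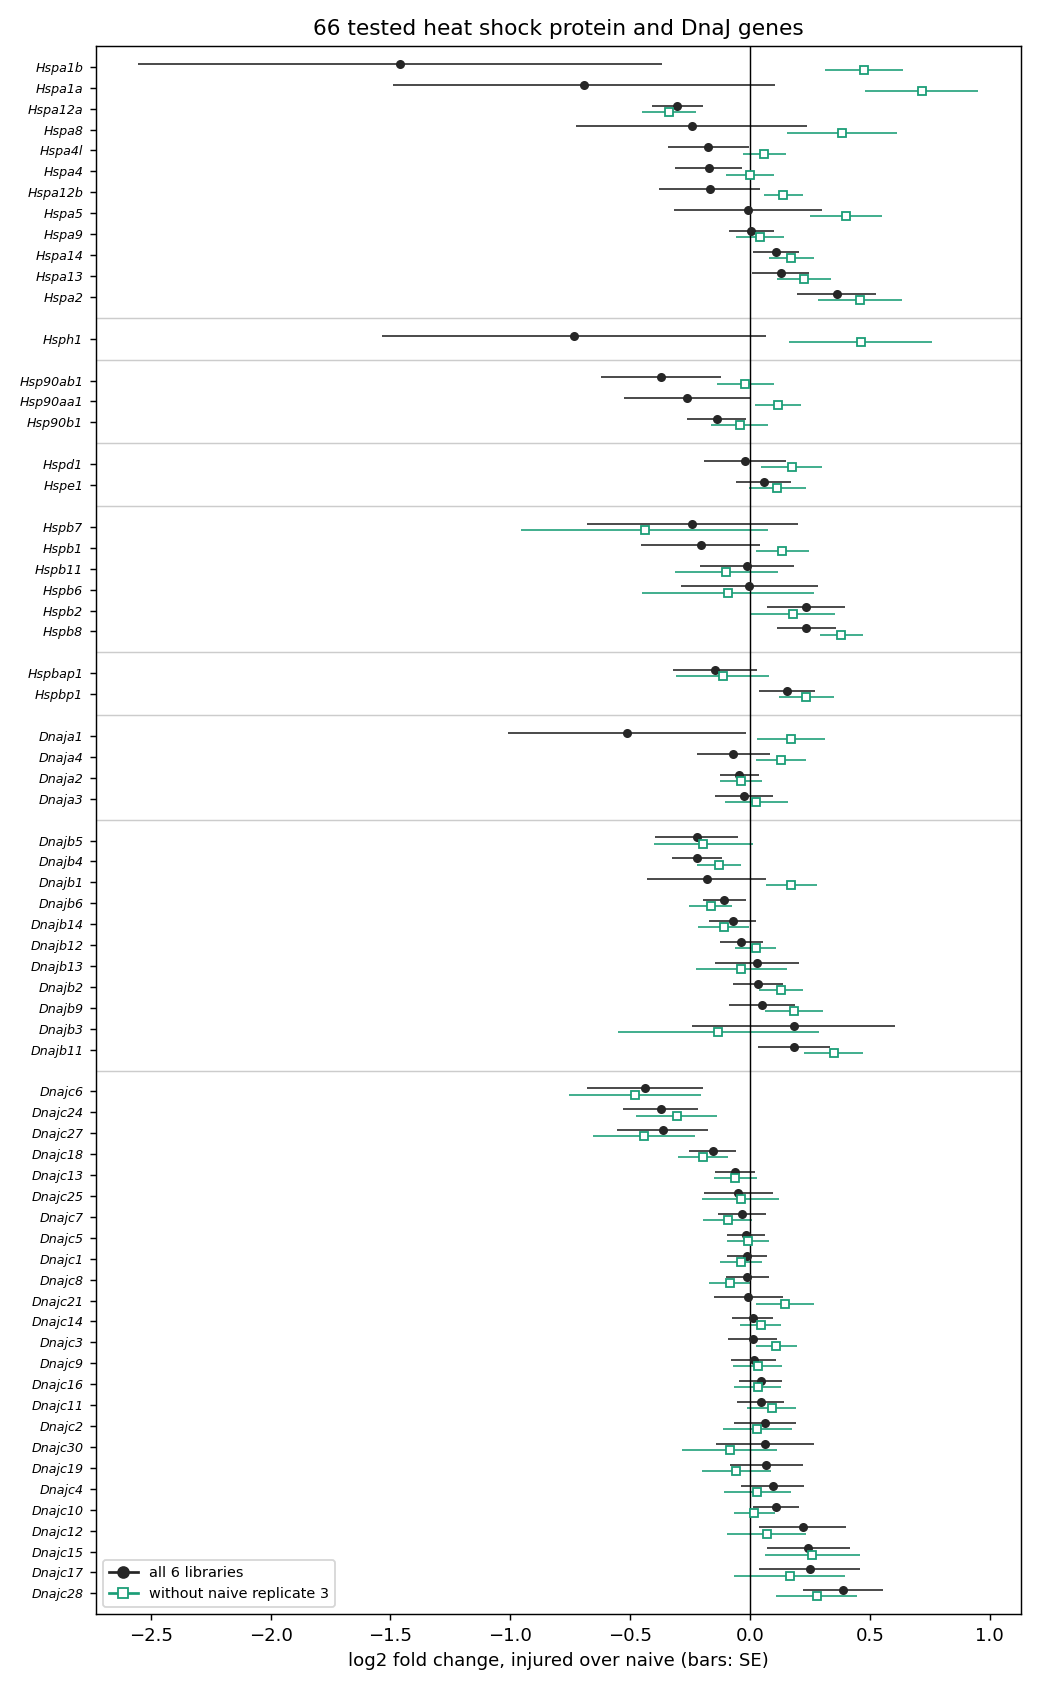
Log2 fold change, injured over naive, of the tested members by class, with all 6 lungs and without naive replicate 3, and bars for the SE. Hspa1b moves between -1.46 and 0.47 and Hsph1 between -0.73 and 0.46, while most Dnajc genes keep their place near 0.

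Genes that work with these chaperones were read from lists of non-members. Of 24 heat shock factors and cofactors of HSP70 and HSP90, 0 were called higher and 0 lower, and the median log2 fold change was -0.037. The most abundant were Cryab, a small heat shock protein of lens and muscle, at -0.19 ± 0.10 on the log2 scale, and Bag1, a nucleotide exchange factor, at 0.10 ± 0.095. Hsf1 itself had 39.9, 36.8 and 35.4 CPM in injured replicates 1, 2 and 3, against 34.6, 35.9 and 42.7 CPM in naive replicates 1, 2 and 3. For 13 of the 24 the highest of the 6 libraries was naive replicate 3, against 21.4% of all genes tested. The median difference of naive replicate 3 from naive replicates 1 and 2 over the 24 was 0.23 on the log2 scale. In 4 of the 24 it was at least 1 log2 unit above, against 1.67% of all genes tested. Fkbp5, an HSP90 partner that glucocorticoids induce, had 74.9, 70.4 and 112 CPM in injured replicates 1, 2 and 3, against 49.1, 54.1 and 153 CPM in naive replicates 1, 2 and 3. Beside its 2.97-fold difference between naive replicate 3 and the other naive lungs, the ratio was 2.31-fold for Chordc1, 2.11-fold for Cacybp, 2.09-fold for the HSP70 to HSP90 adaptor Stip1 and 1.39-fold for Bag3. Below 1 lay Stub1 (0.889-fold), Bag1 (0.923-fold), Cryab (0.957-fold), Sugt1 (0.968-fold) and Bag6 (0.987-fold). Fkbp5, Chordc1, Cacybp, Stip1, Bag3, Stub1, Sugt1, Bag6 and Hsf1 were named after their values were seen.

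The cytosolic chaperonin TRiC and prefoldin, which fold actin and tubulin, had 0 of 14 genes called and a median log2 fold change of 0.11. Their most abundant genes, Pfdn5 and Cct5, had log2 fold changes of 0.11 ± 0.10 and 0.13 ± 0.11. The sum was 1205, 1187 and 1344 CPM in injured replicates 1, 2 and 3, against 1068, 1121 and 1265 CPM in naive replicates 1, 2 and 3, with overlapping groups. Of 8 other mitochondrial chaperones and proteases 0 were called, the median was 0.0060, and the most abundant, Trap1 and Lonp1, had 0.0014 ± 0.10 and 0.011 ± 0.082.

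Of 20 genes of endoplasmic reticulum folding and stress, 0 were called with all libraries and the median log2 fold change was 0.070. The most abundant were Calr, a lectin chaperone, at -0.028 ± 0.17 and P4hb, a disulfide isomerase, at 0.25 ± 0.10. Without naive replicate 3, 4 of the 20 were called higher and 0 lower, with 15 above 0 and 5 below, beside 2.8% of all genes called in that fit. The other way with all libraries lay Herpud1, which serves degradation from the compartment, at -0.28 ± 0.090 (edgeR adjusted p = 0.1503), the stress factor Ddit3 at -0.47 ± 0.20 (edgeR adjusted p = 0.260) and the transcription factor Atf4 at -0.22 ± 0.13 (edgeR adjusted p = 0.453). Sdf2l1, a BiP cofactor, had 26.1, 25.9 and 34.9 CPM in injured replicates 1, 2 and 3, against 13.4, 13.3 and 29.6 CPM in naive replicates 1, 2 and 3, and without naive replicate 3 a log2 fold change of 1.11 ± 0.16 (edgeR adjusted p = 0.00977). Edem1, which directs misfolded glycoproteins to degradation, had 113, 114 and 119 CPM in injured replicates 1, 2 and 3, against 81.0, 80.8 and 119.6 CPM in naive replicates 1, 2 and 3. Manf, a secreted stress factor, had 78.3, 82.6 and 103 CPM in injured replicates 1, 2 and 3, against 53.4, 59.9 and 105 CPM in naive replicates 1, 2 and 3. Hyou1, the large HSP70 of the compartment and nucleotide exchange factor of BiP, had 154, 145 and 177 CPM in injured replicates 1, 2 and 3, against 105, 116 and 185 CPM in naive replicates 1, 2 and 3. Without naive replicate 3 the log2 fold changes were 0.51 ± 0.083 for Edem1 (edgeR adjusted p = 0.0174), 0.63 ± 0.13 for Manf (edgeR adjusted p = 0.0442) and 0.52 ± 0.11 for Hyou1 (edgeR adjusted p = 0.0462). In each of the 4 genes naive replicate 3 lay within or just above the injured range, and these and the 3 lower genes were named after their values were seen. Naive replicate 3 lay above both other naive lungs in 18 of the 20 genes, so leaving it out lowers the naive mean of those genes. For that count no share over all genes is given here. The 4 calls rest on naive replicates 1 and 2 alone, in a fit made after naive replicate 3 was seen to stand apart.

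Some other transcripts also set naive replicate 3 apart from the other naive lungs. The clock gene Arntl had 21.1, 15.6 and 20.2 CPM in injured replicates 1, 2 and 3, against 4.20, 2.43 and 27.7 CPM in naive replicates 1, 2 and 3. The clock output gene Dbp had 28.0, 60.7 and 31.7 CPM in injured replicates 1, 2 and 3, against 116, 215 and 23.8 CPM in naive replicates 1, 2 and 3. On Dbp naive replicate 3 lay below every injured lung, and on Arntl above every one. All injured lungs lay on the same side of naive replicates 1 and 2 as naive replicate 3, above them on Arntl and below them on Dbp. The summed level of 5 red cell markers was 47.4, 102 and 126 CPM in injured replicates 1, 2 and 3, against 71.2, 25.1 and 247 CPM in naive replicates 1, 2 and 3, highest in naive replicate 3. That of 5 fibroblast markers was 1794, 1749.9 and 2696 CPM in injured replicates 1, 2 and 3, against 1444, 1976 and 2884 CPM in naive replicates 1, 2 and 3. In naive replicate 3 it was carried by Col1a1 (2.19-fold the other naive lungs), Col1a2 (1.71-fold) and Pdgfra (1.55-fold), while Dcn (0.926-fold) and Lum (1.10-fold) were close to the other naive lungs. The sum of 9 immediate early genes was 984, 755 and 761 CPM in injured replicates 1, 2 and 3, against 1669.8, 925 and 963 CPM in naive replicates 1, 2 and 3, with naive replicate 1 highest. The 3 club cell markers, which mark the airway lining of lung, summed to 21939.8, 25977 and 20457 CPM in injured replicates 1, 2 and 3, against 30837, 25998 and 18196 CPM in naive replicates 1, 2 and 3. This sum was lowest in naive replicate 3 and was mostly Scgb1a1, at 16737 CPM there. Scgb3a2 was lowest in injured replicate 1 (317 CPM, against 422 CPM in naive replicate 3). Cyp2f2 was lowest in injured replicate 3 (965 CPM, against 1036 CPM in naive replicate 3). The part of all these transcripts in the chaperone values was not tested, and Arntl and Dbp were named after their values were seen.

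Marker lists of other cell types also differed between the groups. Neutrophil markers summed to 1343, 1082 and 591 CPM in injured replicates 1, 2 and 3, against 89.3, 56.2 and 75.4 CPM in naive replicates 1, 2 and 3, with 6 of 8 called higher and 0 lower. Of 8 monocyte and macrophage markers 7 were called higher and 0 lower. Of the T cell markers 3 of 6 were called lower and 0 higher, and of the smooth muscle markers 1 of 7 and of the ciliated cell markers 1 of 8 tested were called lower. In the lists of heart muscle, alveolar type 1 and type 2 cells, endothelium, club cells, red cells, fibroblasts, clock genes and immediate early genes 0 were called in either direction. The part of this shift in the members' values was not tested.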

How the data were processed

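Read counts per gene were deposited by the authors for 6 libraries, with no pooling of lungs, and per the submitters' processing notes STAR, HTSeq, DESeq2, edgeR and STAR-Fusion were used with build mm10. Tool versions, the annotation and the strand setting were not given in the sources used here. The deposited normalized signal is the count over a size factor of each library, and the deposited FPKM followed from counts, gene lengths and column totals, both within a relative tolerance of 1e-06. The authors' deposited log2 fold changes and p-values were used only where named.

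Total counts were 20062818, 22432227 and 23638078 in injured replicates 1, 2 and 3, against 29572273, 18913487 and 34986276 in naive replicates 1, 2 and 3. No libraries of a group were identical or equal within sampling noise. The lungs were taken as separate mice, and if they were not, the p-values measure only the spread between these samples.

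Counts were filtered with filterByExpr, scaled by TMM and compared between the groups, two-sided and with no covariate, by the quasi-likelihood F test of edgeR 4.0.16 under R 4.3.3 with robust dispersions. CPM was computed from these counts, and log2 CPM used a prior count of 2. P-values were adjusted by Benjamini-Hochberg over 15486 genes, at a threshold of 0.05. Alternatives were DESeq2 size factors, total count alone, no filter, DESeq2 1.42.0, limma-voom (limma 3.58.1), the replicate block and each library left out. The procedure was run on simulated counts with changes planted between the groups, in which no library stood apart over a gene family.

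The members, lists and naming rule were chosen with earlier results of these data known. Named members are the 2 most abundant and the 2 with the largest absolute change of each class, the 5 with the largest and 2 with the smallest difference in naive replicate 3, and a set of well-known chaperones. For the other lists they are the 2 most abundant genes where none was called. Hspa2, Hspa12a, Hspa12b, Hspb6, Dnajc24 and Hspa1l were named after their values were seen.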

Additional observations from a re-analysis of the deposited data

How the results depend on the processing

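The count of members called was 0 in each direction under all 12 alternatives, though DESeq2 gave no adjusted p for Hspa1b. Over all genes, 334 were called higher and 148 lower. DESeq2 called 585 higher and 417 lower, and no filter on low counts gave 269 lower. Leaving out 1 library at a time gave 145 to 333 higher and 48 to 146 lower. The other chaperone lists had 0 genes called higher with all libraries and 0 to 4 when 1 library was left out, with 4 without naive replicate 3. The log2 fold change lay between -1.11 and 0.72 for Hspa1a and between -1.94 and 0.47 for Hspa1b over the libraries left out.

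Over the fits that left out 1 library, the log2 fold change lay between -0.80 and 0.17 for Dnaja1, -0.17 and 0.13 for Dnaja4, -0.35 and 0.17 for Dnajb1, -0.43 and 0.12 for Hsp90aa1, -0.24 and 0.40 for Hspa5, -0.58 and 0.39 for Hspa8, -0.36 and 0.13 for Hspb1, -0.15 and 0.17 for Hspd1 and -1.16 and 0.46 for Hsph1, with the upper value of each from the fit without naive replicate 3. It lay between -0.13 and 0.48 for Dnajb3, with the lower value without naive replicate 3, and between -0.84 and -0.011 for Hspb7, with the lower value without injured replicate 3. Genes close to 0 turned with other libraries, with ranges of -0.060 to 0.18 for Dnajb9, -0.048 to 0.11 for Dnajc3, -0.085 to 0.028 for Dnajc8, -0.074 to 0.045 for Hspa9 and -0.020 to 0.15 for Hspe1. Total count alone gave 0.0030 for Dnajc8 and 0.012 for Hspa5, limma-voom 0.072 for Hspa5, DESeq2 size factors -0.00046 and DESeq2 -0.00054 for Hspa9. The cause was not tested.

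With the replicate block, 413 genes were called higher and 208 lower and 0 members, and the log2 fold change was -0.20 for Hspa1a, -0.63 for Hspa1b and 0.068 for Hspa5. Same-numbered lungs deviated with correlations of 0.0767, -0.0853 and 0.154, and some lungs but not all correlated best with their own number. With so few lungs a group, these correlations cannot decide whether same-numbered lungs were paired. Depth limits the 6 members with at most 16 reads in a library.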

Other observations

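Ranked by the difference of naive replicate 3 from naive replicates 1 and 2, the 3 genes ahead of Hspa1b were Slc4a1, the red cell anion exchanger, Ngp, a neutrophil granule protein, and Eln, which encodes elastin. Eln had 455, 201 and 749.98 CPM in injured replicates 1, 2 and 3, against 92.0, 229 and 1453 CPM in naive replicates 1, 2 and 3, so injured replicate 3 was also high. Spon2 and Arntl came next after Hspa1b. Of the 13 clock genes on the list, naive replicate 3 lay at least 1 log2 unit above the other naive lungs in 3, while the median difference over the list was -0.82 on the log2 scale. Naive replicate 3 lay below the other naive lungs for Dbp (0.144-fold), Per3 (0.257-fold), Ciart (0.303-fold) and Tef (0.393-fold). Clock genes without naive replicate 3 had 4 called higher and 4 called lower by edgeR among 13 tested, against 0 and 0 with all libraries. That fit sets the injured lungs against naive replicates 1 and 2 alone. These values were noticed in the data and their relation to the chaperones was not tested.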
